A study of Rattus norvegicus with 4 samples.

Results

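Kidney RNA from spontaneously hypertensive rats (SHR) that had been exposed to nicotine before birth was compared with kidney RNA from SHR exposed to saline before birth. SHR is an inbred rat strain whose blood pressure climbs with age without any treatment. The comparison rests on 2 of the 4 arrays of the series and takes in the 15866 probe sets of the array that are not Affymetrix controls, out of 15923. All animals were males of 9 weeks. The SHR nicotine array carried equal amounts of RNA pooled from 13 animals and the SHR saline array, labelled as the control, RNA from 12. The other 2 arrays carried pools of 12 Brown Norway (BN) rats each, of the same sex and age, with nicotine or saline before birth, and serve here as a second pair from another inbred strain. The labels say no more of the nicotine than that it was given prenatally, and its route, dose and timing are not known here.

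Each kidney pool is 1 array, so no difference between the SHR pools has a replicate, no test was made, and every value below describes these pools. A pool averages its animals, and how far single animals differ cannot be read from it. The labels give kidney as the tissue, with no word on which of its zones were taken. In such bulk RNA, fewer cells of a type and less RNA per cell cannot be told apart.

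Nicotine crosses the placenta and acts on nicotinic acetylcholine receptors, ion channels that open when acetylcholine binds. In the rat, nephrons go on forming after birth, so the kidney is still being built when exposure before birth ends. The adult kidney is made mostly of tubule: the proximal tubule takes back salt, glucose, phosphate and filtered protein, the loop and distal tubule adjust salt, and the collecting duct sets water and acid. Podocytes cover the filter of the glomerulus.

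A gene's value is the MAS5 signal of its brightest probe set, in arbitrary array units, so levels are compared between arrays and never between genes. Signals under a floor of 44.5 were raised to it before ratios were taken, and a gene counts as measured when the higher SHR value was at least 89.0. By this limit 5470 of 10411 named genes were measured and 4941 were not. The log2 ratio is nicotine over saline, so a positive value means a higher signal in the nicotine pool. Scaling of the arrays was equal, with a 2% trimmed mean of 150.0 on each. Between the 3' and the 5' probe set of beta-actin, a measure of how intact the RNA was, the signal ratio was 1.34 in the SHR nicotine pool and 1.39 in the SHR saline pool, and that of Gapdh was 1.11 and 1.0.

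The tissue label was checked against kidney markers. All 30 proximal tubule markers on the array were measured in SHR, and their signals summed to 79039.7 in the nicotine pool and 78291.4 in the saline pool. Of 9 adrenal markers none was measured, and the steroid gene Star read 5.4 and 9.6 in the nicotine and saline pools. Of 14 liver markers 13 were not measured, with albumin, Alb, at 41.4 and 34.2. The exception was Apob, described below.

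The SHR pools were close to each other for most genes. The median log2 ratio over the 5470 measured genes was -0.0063 and the SD was 0.21, and 2649 genes, or 48.4%, were higher by any size under nicotine. Past 1.5-fold lay 59 genes (1.08%) on the higher side and 43 (0.786%) on the lower side. Past 1.2-fold there were 442 higher genes (8.08%) and 467 lower ones (8.54%). These shares are the background for every count below.

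The size of a ratio went with the level of the gene. In the lowest quartile of mean signal, from 63.0 to 127.3, the SD of the log2 ratio was 0.29 and 68 of 1368 genes (4.97%) were at least 1.5-fold apart. In the highest quartile, above 391.6, the SD was 0.14 and 4 of 1368 genes (0.292%) were that far apart. The genes with the largest ratios are therefore mostly dim ones: the median mean signal was 94.2 among those at least 1.5-fold higher and 97.5 among those at least 1.5-fold lower.

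**Figure D1:**
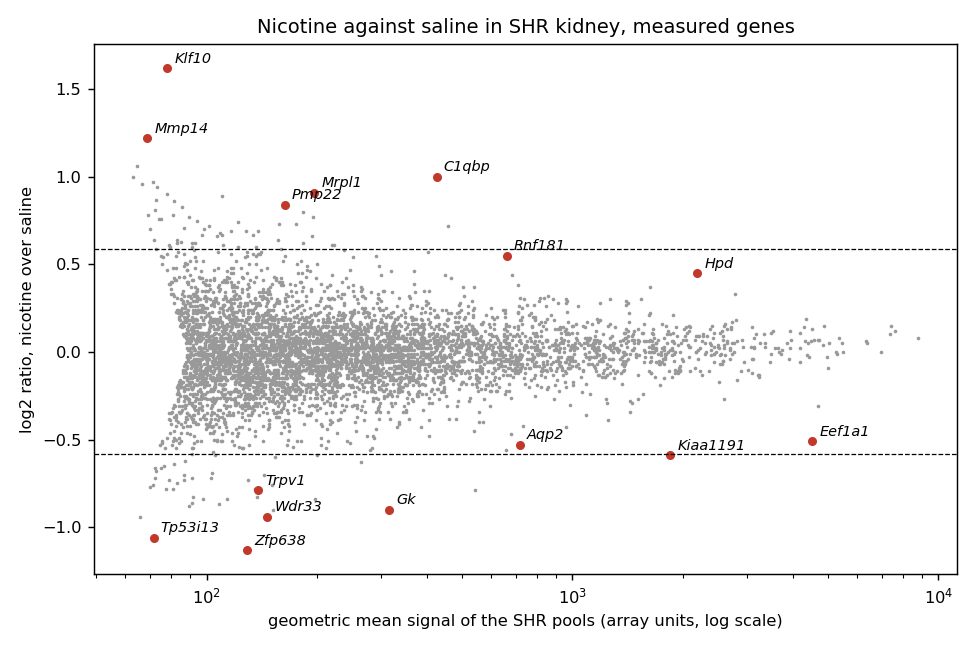
Each grey point is 1 of the 5470 measured genes, with the geometric mean signal of the SHR pools on a log axis and the log2 ratio of nicotine over saline on the vertical axis; dashed lines mark 1.5-fold and named genes are in red. The cloud narrows from left to right, with an SD of 0.29 in the lowest quartile of signal and 0.14 in the highest, and C1qbp, Gk, Hpd, Kiaa1191 and Eef1a1 lie outside it at high signal.

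The largest positive ratios were those of Klf10 and Mmp14. The zinc finger factor Klf10, which TGF-beta induces, was at least 3.08-fold higher (a log2 ratio of at least 1.62) and the membrane-bound matrix metalloproteinase Mmp14 stood at 1.22. For Klf10 the SHR saline pool read 41.3, under the floor, against 137.0 to 147.3 on the other 3 arrays. For Mmp14 it read 45.2 against 82.9 to 105.1. In both genes it is thus the saline pool of SHR that stands apart, with the SHR nicotine pool much nearer to the BN pools, slightly below them for Klf10 and slightly above them for Mmp14. The transcription factor Rfx1 read 114.0 in the SHR nicotine pool and 64.0 in the saline pool, with the BN pools between them at 81.2 and 78.3.

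In other genes the SHR nicotine pool stood above the other 3 arrays. Pmp22, a membrane protein of myelin also made outside nerves, read 219.1 there and 88.6 to 122.2 elsewhere. Apob, the structural protein of low-density lipoprotein, read 149.9 there and 59.4 to 83.4 elsewhere. Osbpl11, of the oxysterol-binding family, read 101.3 against 38.5 to 59.0, and Tlcd3b, 1.96-fold higher in SHR, read 38.0 to 51.1 on the other 3 arrays. The zinc finger gene Zfp267 read 93.1 against 42.1 to 57.8. Other probe sets went against some of these: the second measured probe set of Pmp22 read 103.5 and 128.1 in the SHR nicotine and saline pools, a log2 ratio of -0.31. A second Apob probe set, below the limit for a measured gene, read 44.5 and 62.7. Taken as the mean over its probe sets, the log2 ratio of Pmp22 was 0.27 and not 0.84.

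The SHR saline pool was also the odd array for C1qbp, a protein of the mitochondrial matrix. It read 300.4 there and 602.4 in the SHR nicotine pool, 2.01-fold apart, with the BN pools at 642.6 and 604.1. Ddn encodes dendrin, a podocyte protein of the slit diaphragm, and read 93.0 against 47.7. Tyro3, a receptor tyrosine kinase bound by Gas6 and protein S, read 106.4 against 57.1, with both BN pools between these values at 83.1 and 84.0. Qtrt1, which modifies transfer RNA, and Cstpp1 had log2 ratios of 0.86 and 0.87 in SHR and of 0.71 and 0.88 between the BN pools, although Cstpp1 was not measured in BN by the same limit. LOC102550950 was at least 2.0-fold higher.

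Among the largest negative ratios, several genes had a SHR nicotine pool below all other arrays. Gk, the kinase that brings glycerol into metabolism, read 230.4 there and 412.3 to 457.5 on the other 3 arrays, a log2 ratio of -0.90. Ube2r2, a ubiquitin-conjugating enzyme, read 110.7 against 207.2 to 239.6. Nfkbia, the inhibitor that holds NF-kappaB in the cytoplasm and is itself an NF-kappaB target, read 72.8 against 127.7 to 130.5. Tnfrsf11b, the secreted decoy receptor osteoprotegerin, read 80.0 against 146.5 to 198.8. The glutamate receptor gene Grm8 read 65.7 against 109.7 to 121.3; its 2 other probe sets were under the floor in both SHR pools. In these 5 genes the SHR saline pool lay close to the BN pools and the SHR nicotine pool did not.

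For Trpv1 and Mob2 it was the SHR saline pool that stood out, and for 4 further genes the BN pools lay between the SHR pools. Trpv1, the cation channel opened by heat and capsaicin, read 182.2 in the SHR saline pool and 96.2 to 108.1 on the other 3 arrays. Mob2, a regulator of NDR kinases, read 152.4 in that pool and 80.6 to 85.8 elsewhere. Zfp638, a zinc finger protein that binds nucleic acids, read 190.8 in the SHR saline pool and 86.9 in the nicotine pool, with the BN pools between them at 135.5 and 156.3. Wdr33, a subunit of the complex that cleaves and polyadenylates messenger RNA, was placed in the same way, at 202.2 and 105.7 around BN values of 129.1 and 161.2. Tp53i13, a gene induced by p53, and Cinp, a partner of Cdk2, had log2 ratios of -1.06 and -0.94, again with the BN pools between the SHR pools.

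The rest of the 15 lowest genes were C2cd5, Pla2g12a, Pacsin3 and Elp6, with log2 ratios from -0.83 to -0.86. All 4 also had negative log2 ratios between the BN pools, from -0.47 to -0.97, though only Pacsin3 and Elp6 were measured there. Elp6 is a subunit of the Elongator complex, which modifies transfer RNA, and Pacsin3 shapes membranes during endocytosis.

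**Figure D2:**
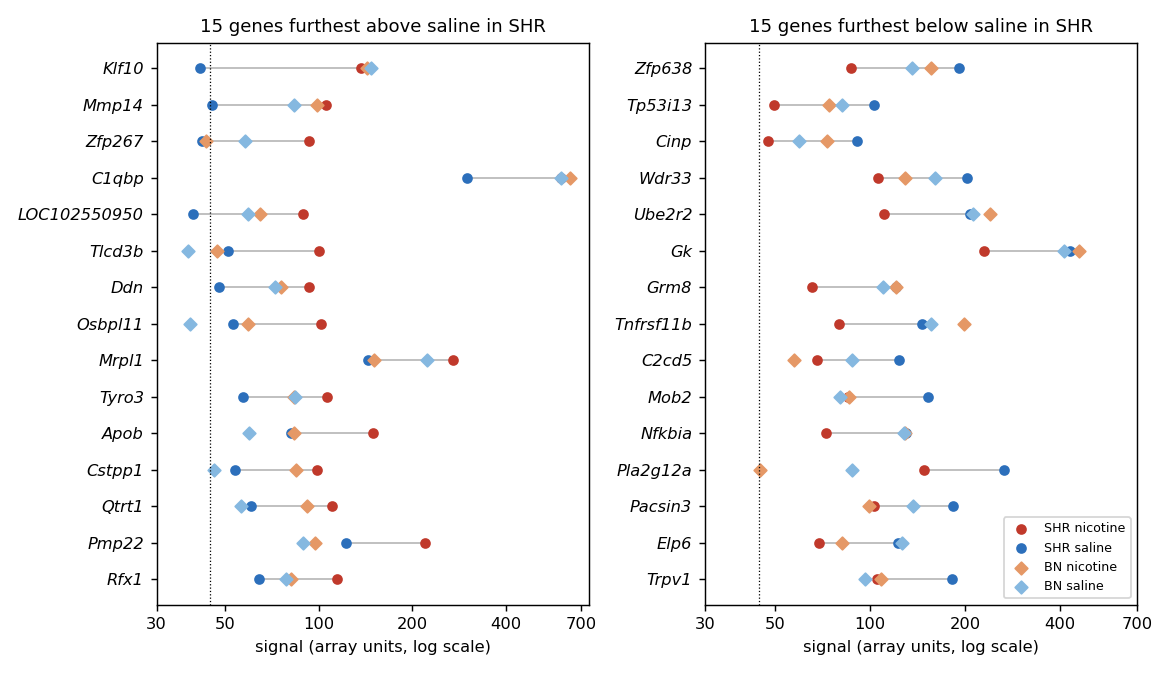
Signals on all 4 arrays (log axis) for the 15 genes with the largest positive (left) and the 15 with the largest negative (right) log2 ratio in SHR; circles are the SHR pools, joined by a line, diamonds the BN pools, and the dotted line is the floor of 44.5. For Klf10 the SHR saline pool (41.3) is apart from the other arrays, whereas for Gk the SHR nicotine pool (230.4) is.

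Over all genes at least 1.5-fold apart, neither SHR pool was regularly the odd array. Of the 59 higher genes, the SHR nicotine pool lay further outside the range of the BN pools in 31 and the saline pool in 28. Of the 43 lower genes the counts were 22 and 20. Over all 5470 measured genes they were 2503 and 2513. Of the 59 higher genes, 37 were measured in BN, where 23 were higher and 14 lower under nicotine. Of the 43 lower genes, 28 were measured in BN, with 14 higher and 14 lower. Among all 5366 genes measured in BN, 51.5% were higher. Whether the nicotine ratio differs between strains could not be tested with 1 array in each group.

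Bright genes give the steadier ratios, so the 1009 genes with a signal of at least 500 in both SHR pools were looked at by themselves. The largest positive log2 ratio among them was 0.55, for the ubiquitin ligase Rnf181, and the largest negative was -0.59, for Kiaa1191. Hpd, the dioxygenase of tyrosine breakdown, read 2566.0 under nicotine and 1875.9 under saline, 1.37-fold apart. The cytochrome P450 genes Cyp2c11 and Cyp2e1 both stood 1.3-fold higher, at 811.9 against 623.6 and 1859.5 against 1434.5. Acy3, an aminoacylase of the proximal tubule, read 3112.0 against 2480.5. In BN the same 4 genes had log2 ratios between -0.08 and 0.08.

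The other bright genes on the higher side were the kallikrein Klk1b3 (0.44 on the log2 scale), the respiratory complex I subunit Ndufb5 (0.32), the purine nucleoside phosphorylase Pnp, the peroxisomal enzyme Ehhadh and Rtraf (each 0.31). Klk1b3 and Cyp2c11 belong to families of near-identical genes, so their probe sets may also read other members. For Rnf181 a second measured probe set read 362.0 and 399.6, a log2 ratio of -0.14, so the 2 probe sets of this gene disagree in direction; the mean over them was 0.21.

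The bright genes on the lower side had varied roles. Aqp2, the vasopressin-regulated water channel of the collecting duct, read 598.3 under nicotine and 864.1 under saline in SHR, and 903.9 and 1011.8 in BN. The SHR nicotine pool was the lowest of the 4 arrays for this gene. Slc7a12, of a family of amino acid transporters, read 540.6 and 797.2. Kiaa1191 read 1507.0 and 2274.3, with the BN pools between them. Klf9, a transcription factor induced by glucocorticoids, read 576.6 and 800.5, and 678.5 and 890.6 in BN. Eef1a1, the elongation factor that brings transfer RNA to the ribosome, read 3788.4 against 5381.2, but its second probe set read 5045.6 against 4773.9, a log2 ratio of 0.08, and the mean over both was -0.21.

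The beta-globin gene Hbb, from red blood cells, was also among these, at 824.5 in the SHR nicotine pool and 1111.7 in the SHR saline pool. In BN its order was opposite, at 1310.6 and 876.9. The part of blood in other ratios was not tested. The other measured gene of the red cell list, Slc4a1, which collecting duct cells also make, was higher, at 245.4 against 212.2. Of the rest, Alas2 was under the limit at 56.9 and 40.8, and Ahsp read 6.7 in both SHR pools. The last 4 bright genes were Dld, a dehydrogenase subunit of the pyruvate complex (-0.42), the peroxiredoxin Prdx6 (-0.39), the racemase Amacr (-0.36) and the complex I subunit Ndufa3 (-0.34).

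Genes read by more than 1 probe set allow a check inside the same pair of arrays. In SHR 580 genes had at least 2 measured probe sets, and in 304 of them (52.4%) all went the same way. That is close to the even split that 2 unrelated probe sets would give. Some genes have more than 2, where such agreement would be rarer, so the even split is only a rough reference. From the disagreement within genes, the SD of a single probe set's log2 ratio was 0.20, close to the SD over all genes. The agreement bears on the probes only: probe sets of a gene read the same pools, so they say nothing of other animals. Of 5 genes at least 1.5-fold apart by their brightest probe set and with another measured one, 3 (Ensa, Fhl2 and Trpv1) kept their direction in the other probe set and 2 (Pik3r2 and Pmp22) did not. In 1 of the 5, Trpv1, the other probe set was also at least 1.2-fold apart the same way, whereas that of Ensa stood at 0.01; Ensa, Fhl2 and Pik3r2 were chosen after their values were seen.

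Only 13 of the 580 genes had every measured probe set at least 1.2-fold apart in the same direction, 6 higher and 7 lower. Since 8.08% of all measured genes were that far higher and 8.54% lower, some genes would pass this rule with unrelated probe sets. How many was not tested. Cp encodes ceruloplasmin, the copper-carrying ferroxidase of plasma. Its measured probe sets stood at 0.38 and 0.35 in SHR, with 248.4 against 190.4 on the brighter, and at 0.37 and 0.29 in BN, so these 4 ratios were positive. Another Cp probe set, under the measured limit, showed almost no difference in SHR, at 78.4 against 76.3 (0.04), and stood at 0.15 in BN. Mbnl1, a splicing regulator, stood at 0.35 and 0.36. Sfpq, another RNA-binding protein, stood at 0.27 and 0.35, and Metap1, which removes the initial methionine of new proteins, at 0.35 and 0.34. Both probe sets of Slc25a48, of the mitochondrial carrier family, stood at 0.36. Azi2 stood at 0.27 and 0.76, the larger from the dimmer SHR saline value of 61.9.

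On the lower side, Trpv1 had the largest shared difference, with 105.2 against 182.2 on one probe set and 58.8 against 89.2 on the next; the remaining Trpv1 probe set was under the floor on every array, and the mean over all 3 was -0.46. Ocln, the tight junction protein occludin, stood at -0.44 and -0.31. Its SHR nicotine pool was the lowest of the 4 arrays on both probe sets, at 249.8 where the others read 338.1 to 423.1, and at 91.3 where they read 113.4 to 147.1. Dhx36, a helicase that unwinds G-quadruplexes, stood at -0.41 and -0.35, and the transcription factor Tcf4 at -0.32 and -0.54. Get4, which helps insert tail-anchored membrane proteins, stood at -0.29 and -0.48. Nolc1, of the nucleolus, stood at -0.33 and -0.27. Mau2, which loads cohesin, stood at -0.26 and -0.31.

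**Figure D3:**
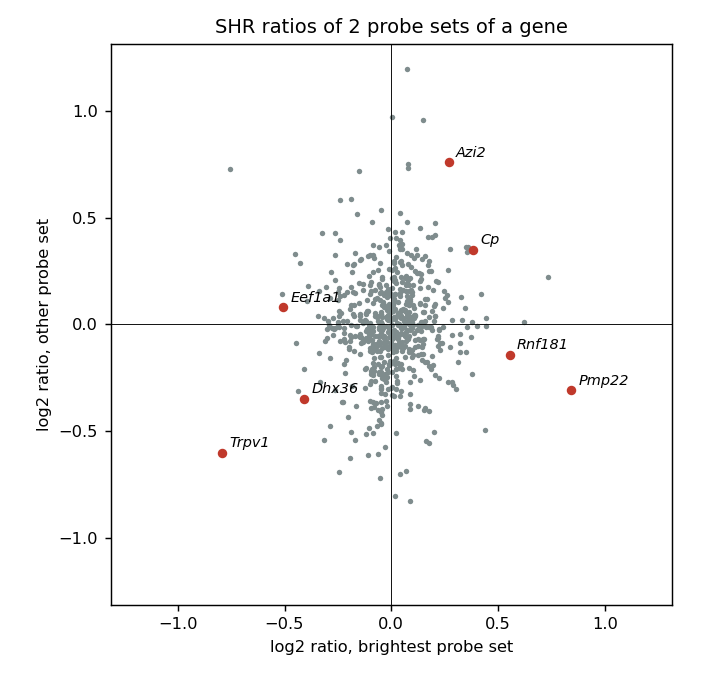
For each pair of measured probe sets of a gene, the log2 ratio of the brightest is on the horizontal axis and that of the other on the vertical axis, both nicotine over saline in SHR. Trpv1 lies far out in the lower left at -0.79 and -0.60, whereas Pmp22 is at 0.84 and -0.31 and Eef1a1 at -0.51 and 0.08.

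Among the gene lists, the interferon response stood out by the number of members on the same side. Interferons bind receptors at the cell surface and, through kinases of the JAK family, turn on genes with an interferon-stimulated response element. Of 45 listed genes on the array 21 were measured in SHR, and 19 of those (90.5%) were higher under nicotine, against 48.4% of all measured genes. The median log2 ratio was 0.12, against -0.0063 over all genes. At least 1.2-fold higher were 4 of 21 (19.0%), against 8.08%, and none was 1.5-fold apart. That this list lay above 0 in SHR was known from earlier results of these data, so its count is no independent support.

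The promoters of these genes were searched for the letters of the response element. The pattern GAAA, any 2 bases and GAAA again, searched on both strands in RefSeq promoters of build GRCr8 (250 bases before to 50 after the gene's start), were found in 11 of the 18 promoters that matched a measured gene of the list (61.1%), and in 1312 of 33469 promoters in all (3.92%). The list was made of interferon response genes, so its share of matches follows from that choice and says nothing of the nicotine pool. Of the 11 measured genes with a match 10 were higher under nicotine and 1, Sp110, was lower, and the 7 without a match were all higher. The 4 promoters printed here belong to listed genes with positive ratios in SHR, to show the match and its place; Bst2 and Irf7 were chosen after their values were seen. Each is printed along the gene's own strand, with the matches in capitals. The windows are Lgals3bp, chr10:104127799-104128098, minus strand; Ifi27, chr6:128355062-128355361, plus strand; Bst2, chr16:18254918-18255217, minus strand; and Irf7, chr1:205799974-205800273, minus strand.
Lgals3bp: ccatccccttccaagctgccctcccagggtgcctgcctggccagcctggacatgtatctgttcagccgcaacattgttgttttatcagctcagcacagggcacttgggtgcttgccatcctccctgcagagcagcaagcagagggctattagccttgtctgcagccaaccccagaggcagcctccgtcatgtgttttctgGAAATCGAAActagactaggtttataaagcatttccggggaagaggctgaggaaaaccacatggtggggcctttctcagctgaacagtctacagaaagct
Ifi27: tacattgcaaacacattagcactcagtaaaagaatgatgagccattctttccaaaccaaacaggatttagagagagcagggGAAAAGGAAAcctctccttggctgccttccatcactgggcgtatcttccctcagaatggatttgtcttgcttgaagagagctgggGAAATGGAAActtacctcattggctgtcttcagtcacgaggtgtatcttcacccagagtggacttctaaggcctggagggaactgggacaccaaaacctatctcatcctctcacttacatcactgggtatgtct
Bst2: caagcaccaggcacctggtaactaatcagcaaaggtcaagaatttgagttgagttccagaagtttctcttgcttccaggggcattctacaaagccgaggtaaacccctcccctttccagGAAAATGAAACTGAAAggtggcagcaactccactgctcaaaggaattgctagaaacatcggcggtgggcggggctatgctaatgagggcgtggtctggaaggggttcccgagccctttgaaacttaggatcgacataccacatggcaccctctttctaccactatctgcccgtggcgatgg
Irf7: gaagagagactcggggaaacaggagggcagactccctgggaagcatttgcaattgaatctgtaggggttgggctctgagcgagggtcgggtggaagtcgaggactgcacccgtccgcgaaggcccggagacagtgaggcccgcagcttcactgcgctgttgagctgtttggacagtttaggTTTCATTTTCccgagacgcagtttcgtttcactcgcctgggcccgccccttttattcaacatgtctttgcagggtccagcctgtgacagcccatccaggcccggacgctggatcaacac
In Lgals3bp the match starts 50 bases before the gene's start, and in Irf7, where it lies on the opposite strand, 69 bases before. Ifi27 has 2 matches, 169 and 84 bases before the start. Bst2 has 2 that overlap, 131 and 125 bases before. No match to these letters was found in the window of Stat2.

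Among the signalling members of the list, Stat2 had the largest ratio, 0.30 on the log2 scale. The receptor chains Ifngr1 and Ifngr2 stood at 0.06 and 0.04. Stat2, the transcription factor that carries the signal, read 150.5 under nicotine and 122.0 under saline in SHR, with the BN pools at 113.5 and 133.7. Irf7, the factor that amplifies interferon production, read 180.7 and 158.8, with BN at 76.1 and 109.7. Irf1 and Irf3 stood at 0.15 and 0.02. For both Stat2 and Irf7 the SHR nicotine pool was the highest of the 4 arrays.

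Among the induced genes, the ratios ran from 0.54 for Ifit1 to -0.20 for Sp110. Ifit1, which binds foreign RNA and blocks its translation, read 91.5 and 63.1 in the SHR nicotine and saline pools and 44.3 and 38.8 in BN. Lgals3bp, a secreted glycoprotein, read 154.7 and 117.4, and 83.4 and 84.1 in BN. Ifi27, an interferon-induced protein of mitochondria, read 543.2 and 448.9, and Bst2, which tethers virus particles to the cell, 290.9 and 244.1. In these 4 genes both SHR pools were above both BN pools. Ifit1 and Lgals3bp were not measured in BN by the limit used here. Of the antigen processing members, Tapbp stood at 0.20, the proteasome activators Psme2 and Psme1 at 0.17 and 0.12, B2m at 0.10 and Psmb8 at 0.06. The 2 lower members were Sp110 (-0.20) and the RNA editor Adar (-0.12).

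In BN 19 genes of the interferon list were measured, 13 of them higher and 6 lower, with a median of 0.027. Macrophage and leukocyte markers leaned the same way as the interferon list in SHR. Of 7 measured, 5 were higher, and the signals of all 24 on the array summed to 5084.4 in the nicotine pool and 4511.9 in the saline pool. Nearly all of that gap came from Cd74 (1706.1 against 1387.5) and Lyz2 (1742.4 against 1507.3), so the sum says little of the other markers. The largest ratios were those of the class II chaperone Cd74 (0.30), the lysozyme Lyz2 and the Fc receptor chain Fcer1g (both 0.21) and the protease Ctss (-0.20). The other 17 markers were not measured, with the leukocyte antigen Ptprc at 21.8 and 28.4 and the T cell gene Cd3e at 7.8 and 8.5 in the nicotine and saline pools. In BN, where the interferon median was 0.027, 5 of 6 measured markers were higher. The median of these markers was 0.29 in BN and 0.083 in SHR, and the BN sums were 3711.5 and 3384.5. Their part in the interferon ratios was not tested.

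**Figure D4:**
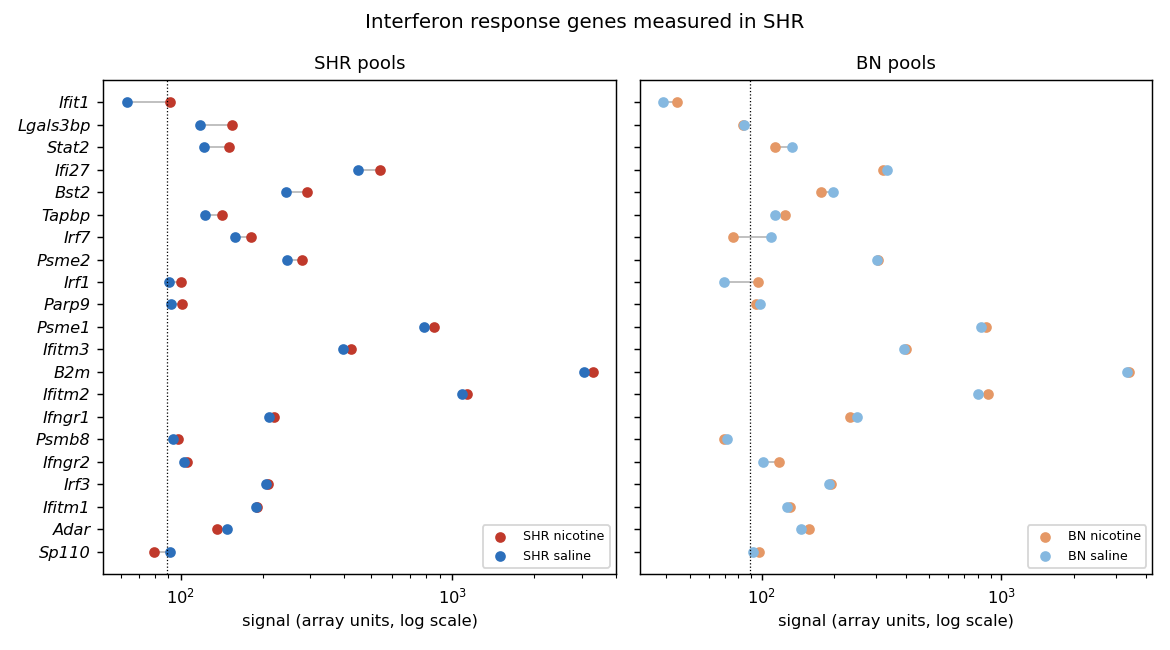
Signals (log axis) of the 21 interferon response genes measured in SHR, in the SHR pools (left) and the BN pools (right), ordered by the SHR log2 ratio; the dotted line is the measured limit of 89.0. In SHR the nicotine point lies to the right of the saline point for 19 genes, whereas Sp110 and Adar have it on the left.

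MHC genes, which present antigen, were divided: 8 of 14 measured were higher, with a median of 0.031, Tapbp at 0.20 and the class II gene RT1-Db1 at 0.19. Genes of TNF and NF-kappaB signalling leaned the other way. Of 18 measured, 13 were lower and the median was -0.12. Besides Tnfrsf11b, which was put in the list for its ratio, and Nfkbia, the ligand genes Tnfsf13 and Tnfsf12 stood at -0.36 and -0.26 and the main TNF receptor, Tnfrsf1a, at -0.26. The NF-kappaB subunits Rela and Nfkb1 stood at -0.04 and 0.00, and the secreted phosphoprotein Spp1 was the highest member at 0.27.

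Tubule markers showed no common direction. Of the 30 proximal tubule markers 13 were higher and 17 lower, with a median of -0.018 and all ratios between -0.38 and 0.37. The lowest was Slc9a3, the apical sodium-proton exchanger, at 402.9 against 523.4, followed by the glucose carrier Slc5a1 (-0.26) and the transcription factor Hnf4a (-0.22). The other measured probe set of Hnf4a stood at -0.02. In the loop and distal tubule 8 of 15 were higher, with a median of 0.044: the tight junction gene Cldn19 stood at 0.39, tissue kallikrein, Klk1, at 0.30, the calcium binder Calb1 at -0.29 and the thiazide-sensitive cotransporter Slc12a3 at -0.25. Klk1 has near-identical relatives, like Klk1b3 above. Collecting duct markers split into 8 higher and 8 lower, with a median of 0.013, and only Aqp2 was past 1.2-fold. Aqp2 and the sodium pump regulator Fxyd4 (-0.26) were the lowest, and the anion exchanger Slc4a1 was the highest at 0.21.

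Over sodium and water transport as a whole, 20 of 37 measured genes were higher and the median was 0.02. Nherf2, a scaffold that binds the exchanger Slc9a3, read 103.0 under nicotine and 67.0 under saline; its second probe set, under the measured limit, read 88.8 and 71.9. For Slc9a3 the BN pools gave 302.2 and 396.5, so saline was above nicotine in each strain.

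In the glomerulus, 6 of 10 podocyte markers were higher, with a median of 0.031. Apart from Ddn at 0.96 the ratios were small: the phosphatase Ptpro stood at 0.19, Tcf21 at 0.16 and nestin, Nes, at -0.24. The endothelial and vessel wall markers split into 6 higher and 5 lower, with the junction protein Pecam1 at 0.43, Egfl7 at -0.43, smooth muscle actin, Acta2, at -0.32 and Pdgfra at -0.22. For Egfl7 the mean over its probe sets was -0.07.

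The renin-angiotensin and vasoactive list, which bears on blood pressure, had 13 measured members of 41 on the array, 5 higher and 8 lower, with a median of -0.02. Agt, the precursor of angiotensin, read 83.1 under nicotine and 104.5 under saline, and its receptor gene Agtr1a 179.4 and 161.3. The other measured probe set of Agtr1a went the other way, at 133.5 and 139.9. Ece1, which activates endothelin, read 221.2 and 183.7. The guanylyl cyclase subunit Gucy1a1 that answers nitric oxide read 148.8 and 173.1. The peptidases Enpep, Mme and Anpep, which trim angiotensin peptides, stood at 0.07, -0.09 and -0.14. Ptges, which makes prostaglandin E2, stood at 0.16, its receptor Ptger3 at -0.02 and the vasopressin receptor Avpr2 at -0.12. The other measured probe set of Ptger3 stood at -0.38, with 115.5 against 150.3. The arachidonate-oxidising cytochromes Cyp2j4, Cyp4a8 and Cyp2c23 stood at 0.20, -0.01 and -0.04. By their brightest probe sets all these genes lie within 1.3-fold.

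Of 25 nicotinic and muscarinic receptor genes and partners on the array, 23 were not measured in either SHR pool. The 2 measured ones went opposite ways, with Chrna2 at 62.3 against 89.7 and Chrna7 at 97.3 against 72.4. A difference in the others, all under the limit of 89.0, was not detectable at these signals.

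Metabolic genes were mixed. Of 48 measured genes of fatty acid oxidation 32 (66.7%) were higher, against 48.4% of all genes, with a median of 0.032; a positive shift of such a list was already known from these data. Acot12, a thioesterase that splits acetyl-CoA, read 97.9 under nicotine and 57.7 under saline in SHR, and 134.5 and 131.1 in BN. Ehhadh stood at 0.31, Amacr at -0.36 and Pdk4, the kinase that shuts off pyruvate dehydrogenase, at -0.39. Among genes of glycerol, glucose and pyruvate use, 23 of 38 were lower, with a median of -0.035. Behind Gk came G6pc3 at 0.41, Pdk4 at -0.39 and Pfkp at -0.32. Of 20 measured genes of cholesterol and fatty acid synthesis, 10 were higher and 10 lower: Acaca, which makes malonyl-CoA, stood at -0.52, Elovl5 at -0.40, Msmo1 at -0.30 and Fads2 at 0.38. For Elovl5 the mean over probe sets was -0.14.

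Among enzymes that handle foreign compounds, 14 of 24 measured P450 and conjugation genes were higher, with a median of 0.014, and 4 (16.7%) were at least 1.2-fold higher. Cyp4b1 led at 0.43, ahead of Cyp2c11 and Cyp2e1, and the carboxylesterase Ces1d was lowest at -0.31. Of 13 glutathione S-transferases 7 were higher: Gstm1 at 0.61 (137.3 against 90.0), Gsto1 at 0.22, Gstz1 at 0.18 and Gstt2 at 0.14. Gstm1 has close relatives that its probe set may also read. Antioxidant genes were evenly divided, 20 higher and 20 lower, with the glutathione peroxidase Gpx2 at 0.41, the regulator Nfe2l2 at 0.27, Prdx6 at -0.39 and glutaredoxin, Glrx, at -0.51. For Glrx the mean over probe sets was -0.18.

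Mitochondrial translation showed a few large positive ratios inside a list that leaned lower. Mitochondria have their own ribosomes, whose protein subunits are made in the cytosol and imported. Of 76 measured genes of this list 49 were lower and 27 higher, with a median of -0.061. At least 1.2-fold lower were 8 (10.5%), against 8.54% of all measured genes. Yet 3 were at least 1.5-fold higher: C1qbp, Mrpl1 (270.0 against 144.0) and Mrpl13 (276.0 against 180.7). Of these, C1qbp and Mrpl1 were put in the list for their ratios, so the count says nothing of the list. Both Mrpl1 and Mrpl13 are subunits of the large ribosomal particle, as is Mrpl14, the lowest member, at 103.4 against 151.9. In BN 42 of 76 were higher, with a median of 0.014. Of the nuclear-coded respiratory chain subunits 37 of 69 were higher, with a median of 0.0044, Ndufb8 at -0.53, Cox5a and Ndufa3 at -0.34 and Ndufb5 at 0.32.

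Cytosolic ribosomal protein genes leaned higher: 27 of 38 (71.1%), with a median of 0.051, and all but Rps29 (-0.31) and Rpl35a (0.30) within 1.2-fold. In BN 12 of 38 were higher. Rps3 and Rpl23 stood at 0.17 and 0.15. Genes of splicing and 3' end formation leaned lower, with 30 of 49 and a median of -0.054. The lowest members, Zfp638 and Wdr33, were put in the list for their ratios. Behind them, Snrnp200, the helicase that unwinds spliceosomal RNA, stood at -0.59 and the RNA-binding protein Rbmx at 0.62. Both had the same sign in BN, at -0.74 and 0.54. In the proteasome and ubiquitin list 27 of 48 were lower, Ube2r2 first, then Psma3 (-0.34), Psmd9 (-0.29) and Uba1 (0.29).

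Of 21 measured genes of the cell cycle and p53, 15 were lower and the median was -0.07. The lowest were Tp53i13 and Cinp, which were put in the list for their ratios, the replication helicase subunit Mcm7 at 70.0 against 100.6, and Mdm2, the ubiquitin ligase of p53, at 73.6 against 98.0. In BN 14 of 20 were higher, with a median of 0.084.

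For TGF-beta signalling, 16 of 28 measured genes were higher, with a median of 0.02. The only member at least 1.2-fold higher was Klf10, which was put in the list for its ratio. The inhibitory Smad6 stood at -0.39, the BMP antagonist Grem1 at -0.35 and Tgfbi, named for its induction by TGF-beta, at -0.25. Extracellular matrix genes were split, 14 of 27 higher, all between -0.31 and 0.27 by their brightest probe sets. Lama2 was lowest and Spp1 highest, with fibronectin, Fn1, at 0.25 and Col1a2 at -0.24. The other measured probe set of Col1a2 went the other way, at 157.9 against 105.6 (0.58), and the mean over both was 0.17. Among proteinases and inhibitors, 8 of 13 were higher, and next to Mmp14 the largest ratios were those of Reck (-0.33), Adam15 (-0.22) and Mep1b (-0.21). Reck encodes an inhibitor of matrix metalloproteinases and read 84.6 against 106.1.

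Immediate early genes, which respond to stimuli within minutes, lay below 0 in 12 of 17 cases (median -0.052), with Klf9 at -0.47 and Gadd45a at -0.33. On the other side were Junb at 0.28 and Klf10 at 1.62 or more. Glucocorticoid-induced genes had no common direction, with 9 of 17 higher. Fkbp5, a chaperone of the glucocorticoid receptor, read 134.0 under nicotine and 84.6 under saline, whereas Klf9, Pdk4 and Errfi1 stood at -0.47, -0.39 and -0.27. Chaperones and stress factors were lower in 23 of 37 cases, median -0.041, with Ddit3 at 0.40, Dnajc3 at -0.31, Pdia4 at -0.30 and Bag3 at 0.24. Of 10 measured clock genes 6 were higher: the repressor Nr1d1 stood at 0.41, Per2 at 0.29, Clock at 0.19 and Nr1d2 at -0.19. The other measured probe set of Clock stood at -0.15.

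Of 17 measured genes of nephron development 9 were higher, with a median of 0.025. The receptor Notch1 read 105.4 under nicotine and 71.7 under saline, and its ligand Jag1 96.7 and 125.2, so the pair went opposite ways. The growth factor receptor Igf1r stood at 0.29 and the tubule factor Pax8 at 0.21. Of the TAM receptors, which clear dying cells, Axl stood at 0.42 beside Tyro3, whereas Mertk and the ligand gene Pros1 stood at -0.15 and -0.18. The 3 measured adipocyte genes Cidea, Lpl and Thrsp stood at -0.19, -0.14 and -0.02.

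**Figure D5:**
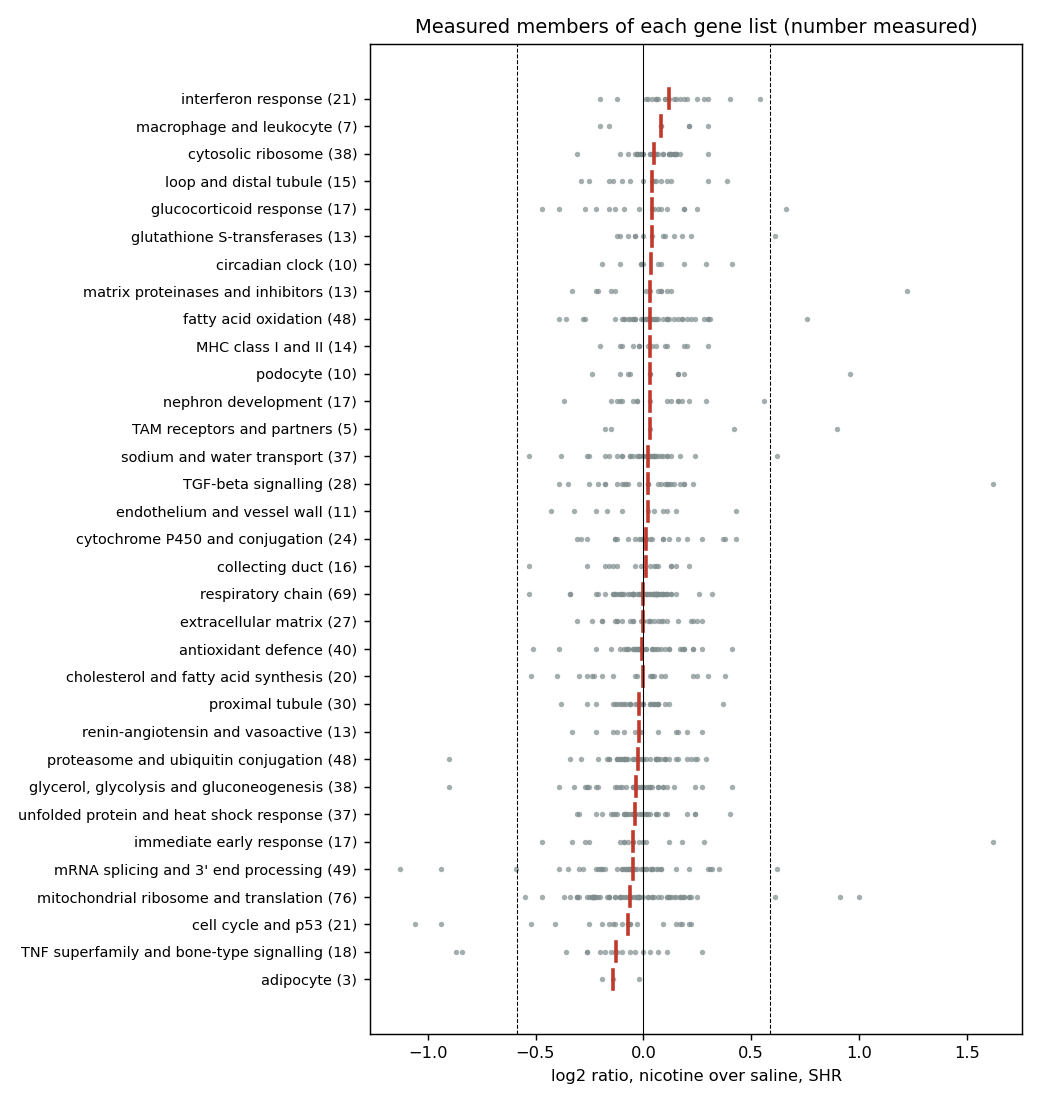
Each grey point is the SHR log2 ratio of a measured member of the list named on the left (number measured in brackets), the red bar is the list's median, and dashed lines mark 1.5-fold. Medians lie between -0.14 (adipocyte, 3 genes) and 0.12 (interferon response), and 20 of the 33 lists with at least 3 measured members have a median above 0.

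Probe sets without a gene name were also compared. Of 3083 with no symbol or several, 947 passed the measured limit, and past 1.5-fold lay 7 on the higher side and 11 on the lower. Over all 7081 measured probe sets, named or not, 76 were that far on the higher side and 64 on the lower. The shares are similar, so these counts show nothing particular to probe sets without a name. The probe set 1394166_at read 98.1 under nicotine and 29.4 under saline, at least 2.2-fold higher, and 1376715_at read 91.2 and 44.9. The lowest, 1383306_at and 1390523_at, read 84.7 against 163.2 and 89.6 against 158.1; the latter had a similar log2 ratio in BN, -0.79 against -0.82 in SHR.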

How the data were processed

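Kidney RNA pools were measured on 1 Affymetrix RAE-230A array per group. The deposited values are signal intensity on a linear scale, which the authors obtained with MAS5 (submitters' processing notes); the version and scaling settings of that program are unknown here, and detection calls were not used. The 57 control probe sets were left out. Of 15866 others, 12783 had 1 gene symbol in the platform annotation, 312 several and 2771 none; 12748 were updated to current RefSeq symbols. The floor was the 40th percentile of all values, measured means 2 times the floor, and a gene was read from its brightest probe set. Ratios were computed with Python 3.11.15 and pandas 2.3.3; the steps were tested on simulated data. With 1 array in each group no p-value was computed; the number of arrays limits the precision.

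The members and the 37 gene lists were chosen with earlier results of these data known, and genes with large ratios (Klf10, Mmp14, C1qbp, Mrpl1, Ddn, Tyro3, Gk, Tnfrsf11b, Zfp638, Wdr33, Tp53i13, Cinp, Ube2r2, Gstm1) were placed in lists for that reason, so counts of members past 1.2-fold or 1.5-fold in those lists, and their medians, support nothing. Named genes are the 15 largest ratios in each direction, the 10 largest in each direction at signals of at least 500, genes with all measured probe sets at least 1.2-fold apart the same way, the 4 members of each list with the largest absolute ratio, and all measured genes of the angiotensin list. Any gene of a list named beyond these was chosen after its values were seen. Alternatives covered the floor, filter, normalisation and use of probe sets.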

Additional observations from a re-analysis of the deposited data

Results flagged for a closer look

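Among the genes named, 141 were measured in both strains. Of these, 15 were at least 1.2-fold apart in both SHR and BN with opposite signs, and 12 were at least 1.2-fold apart in both with the same sign. The named genes were picked mostly for large SHR ratios. Over all 5139 genes measured in both strains, 93 were that far apart in both with opposite signs and 91 with the same sign. With 1 pool in each group, these differences between strains were not tested, and no cause was examined.

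Mrpl1 had a log2 ratio of nicotine over saline of 0.91 in SHR and -0.56 in BN. Nherf2 stood at 0.62 and -0.28, Nr1d1 at 0.41 and -1.04, G6pc3 at 0.41 and -0.47, and Cldn19 at 0.39 and -0.66. Metap1 stood at 0.35 and -0.30, Junb at 0.28 and -0.48, and Sfpq at 0.27 and -0.31, SHR first. Second probe sets did not show the opposite signs for Metap1 (0.34 and 0.06) and Nherf2 (0.30 and 0.06), and did for Sfpq (0.35 and -0.23).

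The other genes were lower in SHR and higher in BN. Tnfrsf11b stood at -0.87 in SHR and 0.35 in BN, Mcm7 at -0.52 and 0.80, Glrx at -0.51 and 0.89, and Hbb at -0.43 and 0.58. Pdk4 stood at -0.39 and 0.34, Agt at -0.33 and 0.46, and Mau2 at -0.26 and 0.42. The other probe set of Mau2 stood at -0.31 in SHR and -0.24 in BN, and that of Glrx at 0.14 and 0.04, so for neither gene did both probe sets show this pattern.

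The 12 genes with the same sign in both strains were Qtrt1, Klk1b3, Cp, Gstm1, Nfe2l2 and Rbmx, which were higher under nicotine, and Wdr33, Pacsin3, Elp6, Klf9, Slc9a3 and Snrnp200, which were lower.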

How the results depend on the processing

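The number of genes past 1.5-fold depended on how dim genes were treated. The counts of 59 higher and 43 lower became 306 and 251 when the 20th percentile was taken as floor, 102 and 86 without a filter on low genes, and 14 and 9 when the floor was the 60th percentile. They became 14 and 14 with the filter at 4 times the floor, and a pseudocount of 16 in place of the floor gave 37 higher genes. Quantile normalisation, lowess centring, median centring and means over probe sets kept both counts within 1.5 times.

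Of 295 list medians over 33 lists and 9 alternatives, 284 moved by less than the standard error of a median of that many genes, taken from the probe set SD of 0.20. The median of macrophage and leukocyte markers became 0.21 both with the floor at the 60th percentile and with the filter at 4 times the floor. That of cholesterol and fatty acid synthesis became -0.19 and -0.14 in these 2 settings, and that of nephron development 0.12 in the latter setting and for a floor at the 20th percentile. That lower floor also moved other lists: cell cycle and p53 became -0.13 and TNF signalling -0.063, the latter value also with no filter. With means over probe sets, TGF-beta signalling became 0.08 and TAM receptors 0.23. The interferon list had 9 of 9 members higher with the floor at the 60th percentile and 30 of 39 with it at the 20th. Of 1339 values of 170 named genes, 11 moved by more than that SD and 0 of those past 1.5-fold changed sign. Settings that only change the filter, or shift all genes by the median, could not move a ratio that far, so their values test nothing. Nor can means over probe sets move a gene that has a single probe set, as most named genes do. The 149 of 158 values that stayed in that setting are therefore mostly no test. A gene not measured in a setting gave no value. The filter at 4 times the floor kept 87 of the 170 genes, and the highest floor kept 76. Klf10 and Mmp14 were in neither set. Of the moved values, 9 came from means over probe sets and 2 from the pseudocount. No paired analysis was possible because each group has 1 array, and for the same reason no array could be left out.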
